A study of Mus musculus with 2 samples.

Results

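The genes described here are 48 genes of DNA replication and the S phase of the cell cycle, the phase in which a cell copies its genome. They were given as a list of symbols by function, chosen with earlier results of these data known. Of the 48, 47 were measured on a probe set (a group of array probes summarised to 1 value) that carries only that gene's symbol, among 22180 genes measured in this way. Rfc4, a subunit of the clamp loader, lies only on a probe set shared with Eif4a2 and is left out of the counts. For the 5 members with more than 1 probe set, the brightest by the mean of the arrays was used.

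The arrays are 2 Affymetrix whole-transcript arrays of RNA from mouse spleen, 1 for each group. Both groups are Fx-/- mice, which lack an enzyme that makes GDP-fucose from mannose and so depend on supplied fucose for fucosylated glycans. The on-fucose group was treated with fucose and the off-fucose group had no fucose treatment; the age, strain and number of the mice, and whether spleens were pooled, are not given in the sources used here, and no array of mice with a working Fx gene was used here. The cells are labelled conventional type 1 dendritic cells (cDC1): B220 and CD11b were used to remove cells and CD11c to select them. Their RNA was labelled from 9 ng per array. T cell markers were bright on both arrays, as given at the end of the Results. The value of each probe set is an intensity summarised with RMA by the authors, and values below are its log2. A difference is off fucose minus on fucose, so 1 is a 2-fold higher intensity off fucose. With 1 array per group there is no replicate, no test was possible, and no difference below has an error; the number of arrays limits the precision.

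DNA replication starts with the loading of the MCM helicase on origins by the origin recognition complex, Cdc6 and Cdt1 in the G1 phase, a step named licensing. In S phase the helicase is switched on, DNA polymerases extend primers behind it, and ribonucleotide reductase and thymidylate synthase supply the building blocks. Transcription factors of the E2F family switch on many of these genes at the border of G1 and S, so they are little transcribed in resting cells. In the spleen they are known to be active in precursors of blood cells and in lymphocytes that have been activated, whereas most dendritic cells and resting T cells do not divide.

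Nearly all of the replication and S phase genes had a higher intensity off fucose. The difference was above 0 in 45 of the 47 measured members, whereas it was above 0 in 47.6% of all genes measured. It reached 2-fold in 9 members, which is 19.1% of them, beside 1.20% of all genes, and no member was at least 2-fold lower, beside 0.257% of all genes. The 9 were Cdc6, Uhrf1, Rrm1, Chaf1a, Mcm5, Lig1, Rrm2, Ccne1 and Prim1. The median difference of the members was 0.59, and that of all genes was -0.0008. Because the list was chosen with earlier results of these data known, these values describe it and are no independent support. The largest was that of the licensing factor gene Cdc6 at 2.20, and the lowest was that of Rpa1 at -0.11. At a threshold of 1.5-fold, 24 members were higher, beside 3.21% of all genes, and at 3-fold 1 member was, beside 0.532%. Among the 23 members whose mean log2 value was 5 or more, 5 were at least 2-fold higher, beside 1.89% of all genes as bright. Uhrf1 and Ccne1, which are among these 5, reach that mean only through their off-fucose value, so this count is no support for the others. With the differences centred on T cell markers, which adds 0.37 to every gene, 20 members were at least 2-fold higher, beside 2.78% of all genes. Many markers of granulocyte, erythroid and basophil precursors were also higher off fucose, with list medians of 5.07, 2.34 and 1.57. Not every marker was: Gfi1 of the granulocyte list had -0.52, and Gata1 (0.48) of the erythroid and Ms4a2 (0.21) of the basophil list lay below the members' median. These markers are named after their values were seen, and a few bright genes carry the sums that follow. The summed intensity of the 8 granulocyte precursor markers was 101 on fucose and 2871 off fucose. That of the 9 measured erythroid markers was 95 and 542, and that of the 7 basophil and mast cell markers was 113 and 1124. The part of these cells in the differences of the replication genes was not tested. In RNA taken from many cells together, more cells of a type and more RNA per cell cannot be told apart.

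**Figure D1:**
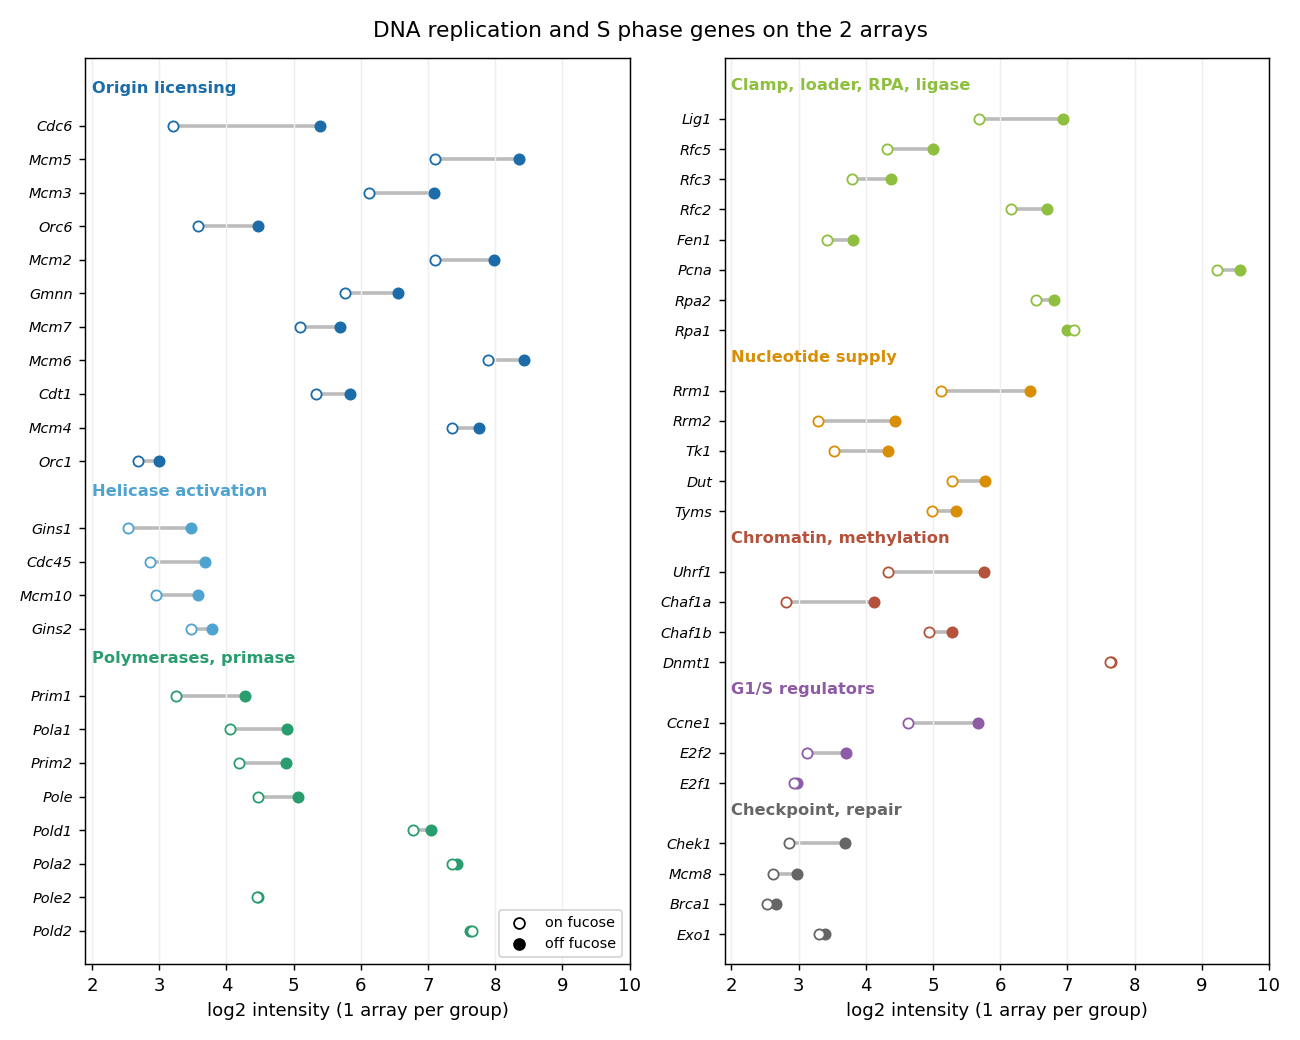
Log2 intensity (x axis) of the 47 measured replication and S phase genes (rows, by role) on the on-fucose array (open circles) and the off-fucose array (filled circles), 1 array per group and no error bars. The filled circle lies to the right of the open one in all rows except Pold2 and Rpa1.

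Some promoters of these genes carry words that E2F factors are known to bind. The words searched were TTTCCCGC, TTTCGCGC, TTTGCCGC and TTTGGCGC, on both strands, in RefSeq windows of 300 bases (250 before and 50 after each annotated start, build GRCm38.p6). Words on opposite strands can overlap, as they do in Mcm5 and Mcm6. At least 1 word lay in 16 of the 49 windows of the 40 members that have an entry (32.7%), beside 2.26% of all 32851 windows. For the 20611 windows of genes measured on the arrays, the share was 2.85%. Of the 16 members with a match, 10 of the licensing, polymerase, clamp loader and ligase groups were picked. Pold1 and Pole2 of the polymerase group also hold a match and are left out. Their differences were 0.28 and 0.01, beside 0.84 in Pola1, which is shown. Stretches around a match in the 10 are printed, because they let the shared word be seen in genes of different roles. Each runs 5′ to 3′ on the gene's strand, and capitals mark the matched words, as the reverse complement where the word lies on the other strand. Only the stretch around the match farthest upstream is shown; Mcm3, Mcm6 and Mcm7 hold a further match elsewhere in the window.
Mcm3, chr1:20820274-20820301, minus strand: cttccgtgGCGGGAAAacttgggaagtt
Mcm5, chr8:75109348-75109375, plus strand: ccaagaacTTTCGCGCCAAAacgtccag
Mcm6, chr1:128359796-128359823, minus strand: cgtatgctTTTGGCGCGAAAagtgcgtg
Mcm7, chr5:138172029-138172056, minus strand: ttcgaaccGCGGGAAAcagggtgtccaa
Cdc6, chr11:98908005-98908032, plus strand: ggtggagaGCGGGAAAtcgcctggggtc
Orc1, chr4:108579419-108579446, plus strand: ggttagtgGCGCGAAAagttttctcctg
Cdt1, chr8:122568039-122568064, plus strand: actaccttTTTGGCGCcatggcgcaa
Pola1, chrX:93632274-93632301, minus strand: atcacaggGCGCCAAAtgcactcccgcg
Rfc3, chr5:151651199-151651226, minus strand: tcgcacgcTTTCGCGCtcGCGGGAAAac
Lig1, chr7:13278844-13278871, plus strand: caaagtgcGCGCGAAAtctgtgtggcgc
In Orc1 the match lies 27 bases before the annotated start, and in Cdc6 138 bases before it. A match is a stretch of letters and was not tested as a binding site. The median GC content of the members' windows was 57.7% and that of all windows 52.7%, and the words are rich in G and C. Among measured members with an entry, the 16 with a word in a window had a median difference of 0.58, with 4 at least 2-fold higher. The 23 without an exact match had a median of 0.62, with 5 at least 2-fold higher.

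All 11 licensing genes were higher off fucose, with a median difference of 0.78. Cdc6 (probe set 17256225), which loads the helicase on origins, went from 3.20 on fucose to 5.40 off fucose on the log2 scale, which is 4.61-fold higher. It was the only member at least 3-fold higher. Its on-fucose value lies near the median of all genes on that array (2.88), where folds are uncertain and may be understated. Cdt1, its partner in loading, went from 5.33 to 5.84, a difference of 0.51. Gmnn encodes geminin, which blocks Cdt1 after S phase has begun, and it went from 5.77 to 6.55 (0.78). The inhibitor thus had a higher value off fucose along with Cdt1, the factor that it blocks. Among the subunits of the origin recognition complex, Orc6 went from 3.57 to 4.47 (0.90) and Orc1 from 2.68 to 3.0 (0.32), with both Orc1 values near the array medians. The other subunits, which are not members and are named here after their values were seen, had differences of 0.00 in Orc2, -0.27 in Orc3, -0.12 in Orc4 and -0.19 in Orc5. Only Orc6 of these 6 subunits differed by more than 0.5.

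The 6 genes of the MCM2 to MCM7 helicase ring were all higher off fucose, by 0.39 to 1.25, with a median of 0.74. Mcm5 (probe set 17502583) went from 7.11 to 8.36, a 2.38-fold higher intensity. Mcm3 went from 6.12 to 7.09, just under 2-fold (0.96), and Mcm2 from 7.10 to 7.98 (0.88). The other three ring genes had smaller differences, with 0.59 in Mcm7, 0.52 in Mcm6 and 0.39 in Mcm4. The proteins join as a ring with 1 copy of each, and the 6 intensities were not higher by the same amount. Mcm5, Mcm2, Mcm4 and Mcm6 are bright on both arrays, so these differences do not rest on dim probe sets.

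The genes that turn the loaded ring into a working helicase were higher but dim. Gins1 went from 2.53 to 3.48 (0.95) and Cdc45 from 2.87 to 3.68 (0.82); both encode parts of the active helicase. Mcm10, which acts as the helicase starts, had a difference of 0.62, and Gins2 had 0.30. None of the 4 was at least 2-fold higher. All on-fucose values lie between 2.53 and 3.48, where differences are uncertain and may be understated. The other GINS subunits, named after their values were seen, had -0.13 in Gins3 and 0.13 in Gins4.

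Subunits of the same polymerase had unequal differences. Among polymerase alpha and primase, which lay the primers, the primase subunit Prim1 went from 3.25 to 4.28 and was 2.04-fold higher. The catalytic subunit Pola1 had a difference of 0.84 and the primase subunit Prim2 had 0.69. The accessory subunit Pola2 went from 7.36 to 7.43, a difference of 0.07. Pole, the catalytic subunit of the leading-strand polymerase epsilon, went from 4.47 to 5.07 (0.61), and its second probe set, at 2.36 and 2.70, differed by 0.34. Its partner Pole2 had 4.46 and 4.47, so the arrays were 0.01 apart. Of the lagging-strand polymerase delta, the catalytic subunit Pold1 had 0.28 and Pold2, at 7.66 and 7.62, had -0.04. Pola1, Pole and Pold1, the catalytic subunits, thus each had a larger difference than Pola2, Pole2 and Pold2. The small subunits that are no members, named after their values were seen, had 0.51 in Pold3, 0.15 in Pold4, 0.12 in Pole3 and -0.08 in Pole4.

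Of the genes that work behind the polymerase, the ligase gene Lig1 stood highest. Lig1 (probe set 17473856), which seals the joints of the lagging strand, went from 5.68 to 6.93 and was 2.38-fold higher. Pcna, the sliding clamp and a common marker of dividing cells, was the brightest of these genes and went from 9.23 to 9.57, a difference of 0.34. The clamp loader genes had 0.68 in Rfc5, 0.58 in Rfc3 and 0.53 in Rfc2, and the probe set that Rfc4 shares with Eif4a2 had 0.96. The large subunit Rfc1, which is no member and is named after its value was seen, had 0.00. Fen1, which trims flaps between fragments, had 0.39, and its second probe set had 0.42. The single-strand binding protein genes were nearly level, with 6.53 and 6.80 in Rpa2 (0.26) and 7.10 and 6.99 in Rpa1 (-0.11). The second probe set of Rpa1, at 2.80 and 3.11, had 0.31, so the sign of Rpa1 differs between its probe sets.

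All 5 genes of nucleotide supply were higher off fucose, with a median of 0.80. Rrm1 (probe set 17481102), the large subunit of ribonucleotide reductase, went from 5.12 to 6.44 and was 2.50-fold higher. Rrm2, the small subunit that is made in S phase, went from 3.29 to 4.44 and was 2.21-fold higher. A second probe set of Rrm2 stayed at 2.61 and 2.64, both near the lowest intensities. Rrm2b, the alternative small subunit that p53 is known to induce in cells outside S phase, went from 4.41 to 3.94, the other direction (-0.47). The thymidine kinase gene Tk1 had 0.80, the dUTPase gene Dut 0.50 and the thymidylate synthase gene Tyms 0.37. A second probe set of Dut, at 2.60 and 2.68, had 0.08.

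Among the genes that rebuild chromatin on new DNA, Uhrf1 and Chaf1a were at least 2-fold higher. Uhrf1 (probe set 17338747), which guides DNA methylation to newly copied DNA, went from 4.33 to 5.76 and was 2.69-fold higher. Dnmt1, the methyltransferase it guides, had 7.63 and 7.65, a difference of 0.03. Chaf1a, the large subunit of the histone chaperone CAF-1, went from 2.81 to 4.13 and was 2.50-fold higher. That fold is uncertain and may be understated, because 2.81 lies below the median of all genes on that array. The partner of Chaf1a, Chaf1b, went from 4.94 to 5.29 (0.34). Partners in 1 pathway thus differed by unlike amounts here too.

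The regulators of S phase entry had unlike differences. Ccne1, the cyclin E1 gene, went from 4.63 to 5.67 and was 2.06-fold higher. E2f2 went from 3.13 to 3.71 (0.59), and E2f1 had 2.93 and 2.98, a difference of 0.05 near the array medians. Of the checkpoint and repair members, the checkpoint kinase gene Chek1 went from 2.86 to 3.69 (0.83). Mcm8, a helicase of recombination, had 0.36, the recombination gene Brca1 had 0.14 and the exonuclease gene Exo1 had 0.07. All of these repair genes had off-fucose values of at most 3.69, close to the dimmest probe sets, where differences are uncertain and may be understated.

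The promoter windows of the 4 members with the largest differences are printed to show which of them hold an E2F word. Capitals mark the word, and a window in lower case throughout holds none.
Cdc6, chr11:98907901-98908200, plus strand: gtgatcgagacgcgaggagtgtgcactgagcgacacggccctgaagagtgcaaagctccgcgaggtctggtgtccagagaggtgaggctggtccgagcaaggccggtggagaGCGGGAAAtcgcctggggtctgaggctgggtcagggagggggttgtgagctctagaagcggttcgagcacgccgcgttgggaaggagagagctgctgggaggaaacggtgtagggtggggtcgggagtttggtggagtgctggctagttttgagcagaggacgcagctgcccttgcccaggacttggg
Uhrf1, chr17:56303087-56303386, plus strand: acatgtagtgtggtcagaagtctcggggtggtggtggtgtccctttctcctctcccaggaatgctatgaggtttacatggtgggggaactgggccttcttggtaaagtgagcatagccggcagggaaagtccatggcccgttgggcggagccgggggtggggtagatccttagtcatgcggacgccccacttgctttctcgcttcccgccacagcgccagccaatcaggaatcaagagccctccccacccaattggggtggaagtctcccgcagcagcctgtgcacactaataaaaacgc
Uhrf1, chr17:56304063-56304362, plus strand: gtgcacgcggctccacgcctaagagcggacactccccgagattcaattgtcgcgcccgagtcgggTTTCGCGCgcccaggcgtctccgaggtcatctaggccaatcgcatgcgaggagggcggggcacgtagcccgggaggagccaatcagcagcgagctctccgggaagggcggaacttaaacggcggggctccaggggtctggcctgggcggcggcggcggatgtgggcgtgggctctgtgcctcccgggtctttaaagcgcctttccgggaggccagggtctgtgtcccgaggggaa
Rrm1, chr7:102441445-102441744, plus strand: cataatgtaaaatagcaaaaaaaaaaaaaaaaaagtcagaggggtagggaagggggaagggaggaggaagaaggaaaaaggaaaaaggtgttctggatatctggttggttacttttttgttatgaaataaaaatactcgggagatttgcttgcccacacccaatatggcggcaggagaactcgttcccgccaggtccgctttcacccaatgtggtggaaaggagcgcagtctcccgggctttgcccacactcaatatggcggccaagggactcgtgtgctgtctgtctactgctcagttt
Chaf1a, chr17:56040166-56040465, plus strand: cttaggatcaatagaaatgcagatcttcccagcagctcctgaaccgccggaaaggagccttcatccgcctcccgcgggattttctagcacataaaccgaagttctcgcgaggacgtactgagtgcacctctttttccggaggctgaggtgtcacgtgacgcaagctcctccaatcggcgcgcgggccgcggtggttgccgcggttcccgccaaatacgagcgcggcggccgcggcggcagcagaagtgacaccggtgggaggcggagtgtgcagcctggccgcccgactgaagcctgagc
Cdc6 holds 1 word in its window. Of the 2 annotated starts of Uhrf1 the second window holds 1 word, 185 bases before the start. Rrm1 and Chaf1a hold none of the 4 words, though their differences were as large as 1.32. Only exact matches were counted, and both windows hold stretches that differ from a word by 1 base. No match says only that these letters are not in these windows.

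Beside genes of like intensity, the members stood on the higher side. Each member was set beside the 200 genes nearest to it in mean log2 intensity, whose median differences ran from -0.12 to 0.05. All 47 members lay above the median of their 200 neighbours. For 18 members, at most 5% of the neighbours had a difference as large. Gins1 was matched or passed by 0.500% of its neighbours, and Rrm1, Chaf1a, Mcm5 and Mcm3 by 1% each. Cdc6, with the largest difference, was matched by 1.5% and Uhrf1 by 4.5%. The same size of difference was more or less common depending on the neighbours: the 0.52 of Mcm6 was matched by 2% of its neighbours and the 0.34 of Pcna by 5%, whereas the 0.90 of Orc6 was matched by 7%. At the other end, Exo1, Rpa1, Pold2, E2f1 and Pole2 were matched or passed by 43.5% to 48.0% of their neighbours, so they sit in the middle of genes like them. These shares describe 2 arrays, and genes are not replicates. The middle of all genes by mean intensity is 2.88 on the log2 scale, and 44 members lay there or higher. That mean includes the off-fucose values. On the on-fucose array alone, 7 members lay at or below the median of all genes on that array.

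**Figure D2:**
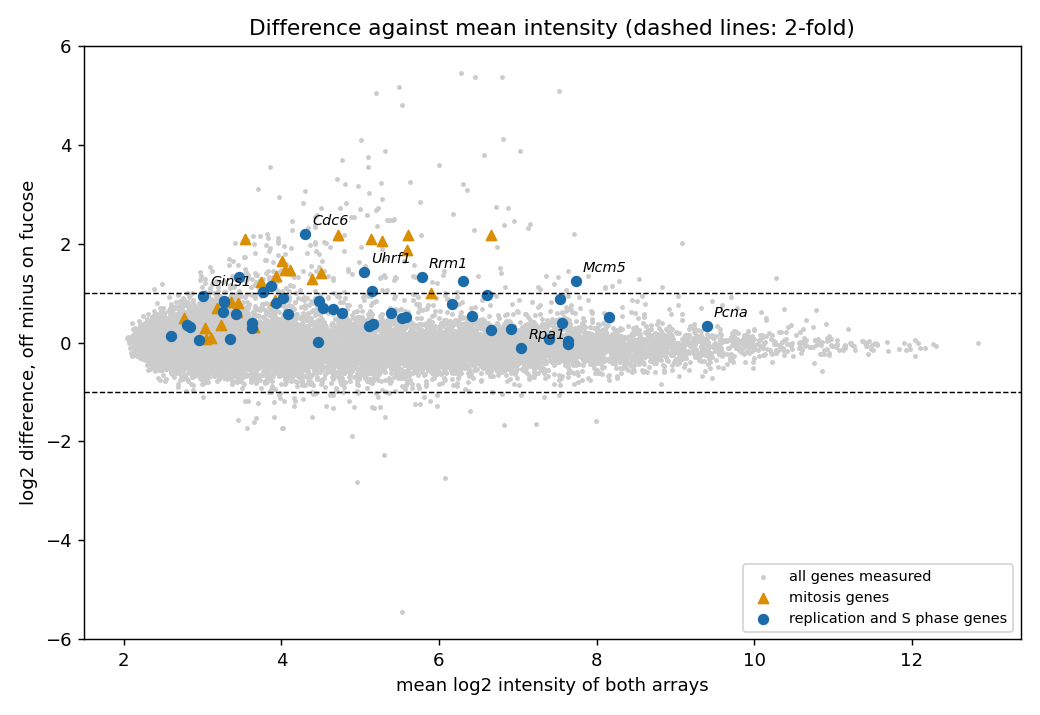
Log2 difference, off minus on fucose (y axis), against the mean log2 intensity of both arrays (x axis) for 22180 genes (grey), the 47 replication and S phase genes (blue circles) and 26 mitosis genes (orange triangles). Dashed lines mark 2-fold; 9 blue circles and 15 orange triangles lie at or above the upper line and none at or below the lower one.

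Further genes of replication and S phase, on lists made by function with earlier results of these data known, went both ways. Of 108 such genes measured, 5 were at least 2-fold higher (4.63%, beside 1.20% of all genes) and none was at least 2-fold lower. The difference was above 0 in 76 and below 0 in 31, down to -0.47 in Rrm2b, and their median was 0.21. The 5 were E2f8, Dtl, Mybl2, Cdk6 and Dna2. E2f8, a repressor of the E2F family that is itself made in S phase, went from 3.41 to 6.23 and was 7.08-fold higher, more than any member. Dtl, which brings Cdt1 to destruction during S phase, went from 3.71 to 5.89 (2.18). Mybl2, which switches on late cell cycle genes, went from 3.53 to 5.56 (2.03), and its second probe set, at 2.95 and 2.50, went the other way (-0.45). The G1 kinase gene Cdk6 had 1.34 and the nuclease gene Dna2 1.02. Below 2-fold, the largest were Mms22l (0.94), the histone chaperone gene Asf1b (0.91) and the dCTP pyrophosphatase gene Dctpp1 (0.83). The E2F partner gene Tfdp1 had 0.72 and the repair helicase gene Blm 0.67. The cyclin E2 gene Ccne2 lies only on a probe set shared with Ints8, which went from 2.84 to 4.39 (1.54).

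By list, 1 of 32 other replication genes, 3 of 26 other genes of G1/S control and 1 of 13 other S phase chromatin genes were at least 2-fold higher. None of 17 other genes of nucleotide supply and none of 20 other checkpoint and repair genes was. Their medians were 0.12, 0.19, 0.38, 0.23 and 0.20 in that order. Differences below 0 were found in 11, 8, 1, 5 and 6 genes of these lists. The 1 of 32 (3.12%) lies near the 1.20% of all genes. Beside that share, the 3 of 26 are 11.5% and the 1 of 13 is 7.69%. The 8 measured housekeeping genes ran from -0.23 to 0.16.

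Mitosis genes, which act after S phase, had a median difference of 1.26, beside the 0.59 of the replication genes. Of 26 measured, 15 (57.7%, beside 1.20% of all genes) were at least 2-fold higher, and all 26 were above 0. The cyclin A2 gene Ccna2 went from 3.63 to 5.81, the mitotic kinase gene Plk1 from 4.51 to 6.70, and Mki67, the marker of dividing cells, from 5.57 to 7.74. Their differences ran from 0.06 to 2.18, so the lists overlap: Cdc6 (2.20) lay above all 26, and Uhrf1 (1.43), Rrm1 and Chaf1a (1.32 each) lay above their median. The difference between the lists could not be tested with 1 array per group. Many replication members were also well above the array medians on fucose, as with 9.23 in Pcna and 7.90 in Mcm6. The 9 brightest members, with a mean of 7 or more on the log2 scale, had a median difference of 0.34, and 1 of them, Mcm5, was at least 2-fold higher.

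**Figure D3:**
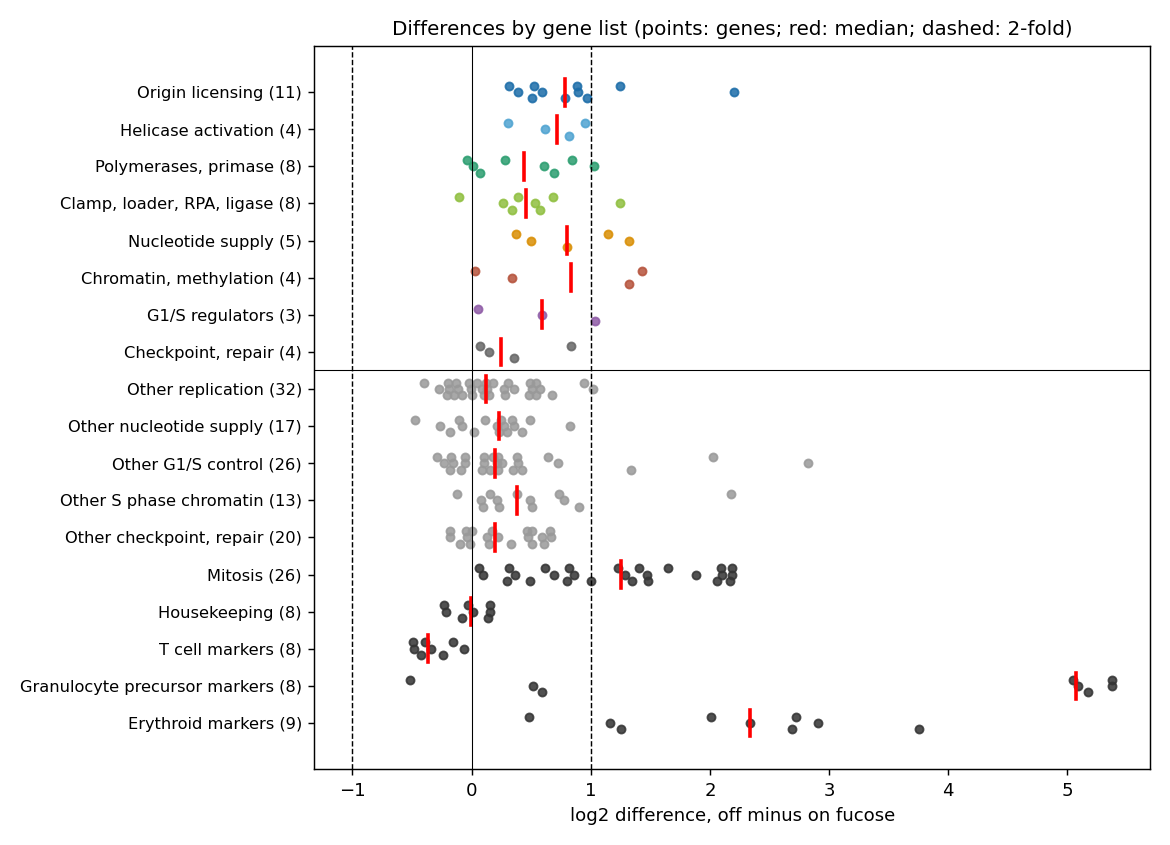
Log2 difference, off minus on fucose (x axis), of each gene (points) by list (rows, number of genes measured in brackets), with the median of the list in red and 2-fold in dashed lines. The 8 rows above the line are the replication and S phase members; mitosis genes reach a median of 1.26 and T cell markers a median of -0.37.

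Taken as whole sets, the promoter words set the mitosis genes apart from the replication and S phase genes. They did not separate the members from every other S phase list. Windows of the licensing genes held an E2F word in 7 of 10 cases (70.0%), and those of the other S phase genes in 26 of 115 (22.6%). Windows of the nucleotide supply members held none of the 4 words (0 of 5), nor did those of the helicase activation members (0 of 2). The polymerase members had 42.9% and the clamp, RPA and flap members 18.2%, with the remaining member groups between these. Among the other S phase lists, the chromatin genes had 41.7% (5 of 12), above the 32.7% of the members' windows. The remaining S phase lists lay below it, from 28.6% in other replication genes to 0 of 21 in other nucleotide supply genes. The CHR words TTTGAA and TTCGAA, known from genes switched on in G2 and mitosis, lay in 19 of 23 windows of mitosis genes (82.6%), 16.3% of the members' windows and 19.2% of all windows. CCAAT lay in 57.1% of the members' windows, 87.0% of those of mitosis genes and 37.4% of all windows. Both strands were searched for each word. The E2F words lay in 1 of 23 windows of mitosis genes (4.35%). Genes at least 2-fold higher off fucose that are on none of the lists had E2F words in 4 of 170 windows (2.35%), close to the share of all windows. These shares describe the annotated windows and hold no measurement from the arrays, apart from the choice of the last set.

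**Figure D4:**
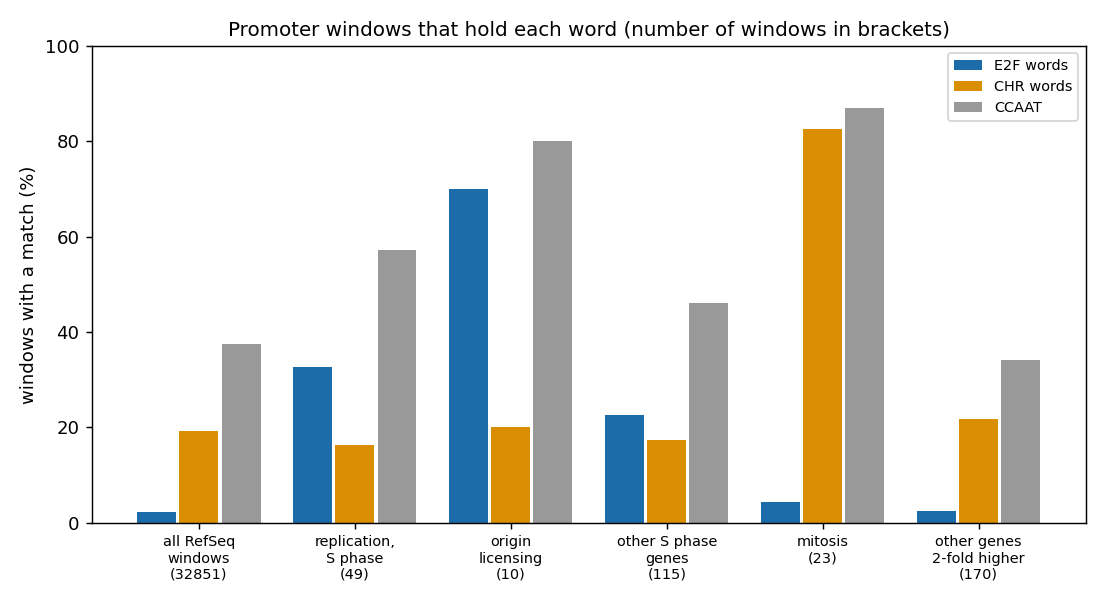
Share of RefSeq promoter windows of 300 bases with at least 1 match (y axis, percent) to the E2F words, the CHR words and CCAAT, for 6 sets of genes (number of windows in brackets). E2F words lay in 32.7% of windows of the replication and S phase genes and in 70.0% of those of the licensing genes among them. The other S phase genes had 22.6%, beside 2.26% of all windows. CHR words stand out in the mitosis genes (82.6%).

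Other features of the arrays move with the groups. Intensities ran from 2.74 to 8524 on fucose and from 3.15 to 9512 off fucose. T cell markers were bright on both arrays, with a summed intensity over 8 genes of 9984 on fucose and 8057 off fucose, and all 8 had a negative difference (median -0.37). Of 11 measured cDC1 markers, 9 had a positive difference and 4 were at least 2-fold higher off fucose, with a list median of 0.60. The 4 were Irf8 (4.18 and 6.68), Naaa (5.97 and 8.36), Tlr3 (2.95 and 4.96) and Wdfy4 (4.28 and 5.84). Named after their values were seen, Batf3 had 4.58 and 5.49, Xcr1 2.90 and 3.43, Zbtb46 2.84 and 2.98, and Itgax, which encodes the CD11c used for selection, 3.83 and 3.86. Also named so, Cadm1 had 3.04 and 3.65. Itgae went from 6.02 to 5.64 (-0.38) and Cd8a from 8.37 to 8.22 (-0.16), the markers with a negative difference. Levels of different probe sets are not on a common scale, so these values give no share of a cell type. All 8 T cell markers had a mean log2 of at least 5, beside 6 of the 11 cDC1 markers. The T cell marker Cd3e had 10.97 and 10.55, whereas Xcr1 and Zbtb46 lay nearer the array medians of 2.88 and 2.91. The cells are labelled cDC1, and the make-up of the sample was not tested. At least 2-fold higher off fucose were 5 of 8 granulocyte precursor, 4 of 7 late neutrophil, 8 of 9 erythroid, 5 of 7 basophil and mast cell, 3 of 6 progenitor, 2 of 4 megakaryocyte and 4 of 5 monocyte markers. Beside these counts stands the 1.20% of all genes. No intensity is 0 in this table, so no marker is listed at 0. B cell markers had a summed intensity of 51 and 43. Xist, expressed from the inactive X of female cells, went from 8.26 to 2.82 and the Y-linked Uty from 2.14 to 5.26, and the labels give no sex. The part of any of these in the differences of the replication genes was not tested, and with 1 array per group they cannot be told apart from the fucose treatment.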

How the data were processed

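RNA of spleen cells from Fx-/- mice was measured on 2 arrays, 1 per group. The deposited table holds 1 linear intensity for each of 41345 probe sets and array, summarised by the authors. The submitters' processing notes name RMA; version, settings and genome build are not given in the sources used here. As usually run, RMA makes the distributions of arrays alike, so a shift of all genes one way would not show. Log2 was taken of each value. Genes were named from the platform annotation, using the 23521 probe sets with 1 symbol; of several probe sets, the one with the highest mean stood for the gene. No filter on low values was used for the counts. Groups came from the labels' treatment field. With 1 array per group, counts past 2-fold and medians were given without a test. The script was tested on simulated data.

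The members and lists were chosen with earlier results of these data known. Every member may be named; the 12 largest and 5 smallest differences and up to 4 genes per other list were to be given with values, and promoters for the 4 largest. Further genes are marked where named after their values were seen. Promoter windows are from RefSeq (GRCm38.p6), matched by symbol for 40 of 48 members. Alternatives were the mean of probe sets, filters on the mean, loess (span 0.3, statsmodels 0.14.6), quantile normalization, centring on T cell markers, thresholds of 1.5-fold and 3-fold, and 500 neighbours.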

Additional observations from a re-analysis of the deposited data

How the results depend on the processing

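No paired analysis was possible because only 1 array stands for each group, so none could be left out either. The number of members at least 2-fold higher (9 of 47, beside 1.20% of all genes) was 8 with the mean of probe sets (1.15%). It was 10 with loess (1.37%) and with quantile normalization (1.31%). It was 20 with centring on T cell markers (2.78% of all genes), 24 at 1.5-fold (3.21%) and 1 at 3-fold (0.532%). Among the 23 members with a mean log2 of at least 5, it was 5 (1.89% of all genes as bright). These follow from the constructions: a constant was added, the threshold moved or genes were dropped. None was at least 2-fold lower under any of these settings. The members' median (0.59) ran from 0.51 to 0.63 and was 0.96 with that centring. For the further S phase genes, the count (5) was 15 (2.78% of all genes) and the median 0.58 with that centring. The count was 1 at a mean of at least 5 (1.89% of all genes as bright). For mitosis genes, that filter left 6 genes, all 6 at least 2-fold higher (median 2.08); 4 of them (Plk1, Aurkb, Ccnb2 and Cdk1) reach that mean only through their off-fucose value, so the count is fixed in part by the filter. Under loess and under quantile normalization 46 of 47 members were above 0. Low signal limits the 16 members with an on-fucose log2 intensity under 3.5. At most 5% of 500 neighbours matched 15 members, against 18 with 200.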
